A study of Homo sapiens with 6 samples.

Results

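The alcohol dehydrogenase (ADH) cluster on human chromosome 4 holds 7 genes, ADH1A, ADH1B, ADH1C, ADH4, ADH5, ADH6 and ADH7, out of 20033 protein-coding genes for which peaks were counted. The members were chosen by measured values: in the list of peaks, windows at the transcription start site (TSS) of ADH4 were largely covered, while those of ADH1A, ADH1B and ADH1C held no peak. The study had also listed these 4 genes as less expressed in HepG2 cells than in liver, and expression was not analysed here. The TSS cover of these genes and the counts that follow from it are therefore descriptions, and no test was applied to them.

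In CIDOP, a GST-tagged reading domain replaces the antibody of a ChIP experiment. Here the domain was the tandem Tudor domain (TTD, residues 126 to 280) of human UHRF1, used on native mononucleosomes that were released with micrococcal nuclease from HepG2 cells, an established hepatoblastoma-derived line of liver origin. The experiment comprised 2 TTD CIDOP libraries, 2 libraries of H3K9me2 ChIP and 2 of input, and all 6 came from untreated cells of this single line. The values below come from 1 list of 31569 TTD peaks that the authors called on the mean of both TTD libraries, so they carry no error between replicates, and the read depth behind a peak is unknown. The list gives positions and widths in base pairs without a score. Absence of a peak therefore means only that the signal did not pass the cutoff of the authors or that the region was removed afterwards, with the blacklist or by hand. The liver origin of the cells could not be checked against marker expression in this list, and the number of copies of chromosome 4 in the cells was not taken into account.

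ADH enzymes oxidise alcohols to aldehydes, or reduce aldehydes, with NAD as cofactor. ADH1A, ADH1B and ADH1C encode the class I subunits, which carry most of the ethanol oxidation in liver. ADH4 encodes the class II enzyme of liver, and ADH5 the class III enzyme, a glutathione-dependent formaldehyde dehydrogenase that is made in nearly all tissues. ADH6 encodes the class V enzyme, whose transcript is found in liver. ADH7 encodes the class IV enzyme of the stomach and oesophagus, which is active on retinol. The TTD of UHRF1 binds tails of histone H3 that carry methylation of lysine K9, and UHRF1 recruits the maintenance DNA methyltransferase DNMT1.

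The promoters differed in sequence as well as in TTD cover, and 5 of them are shown because they span the covered and the peak-free members. Each is 250 bases of hg38 upstream of a TSS, printed 5′ to 3′ on the minus strand, from which all 7 genes are transcribed. Capitals mark CpG dinucleotides. The first sequence, from RefSeq at chr4:99144298-99144547, lies wholly within a TTD peak and holds 1 CpG. The second, read from hg38 at chr4:99157793-99158042, precedes the outermost annotated start of ADH4, lies wholly within the widest peak of the cluster and also holds 1 CpG. The ADH6 promoter (RefSeq, chr4:99219247-99219496) lies in the gap between a pair of peaks. The ADH1B promoter (RefSeq, chr4:99321402-99321651) represents the class I genes, and the ADH5 promoter (RefSeq, chr4:99088789-99089038) is the CpG-rich one, with 21 CpGs.
ADH4: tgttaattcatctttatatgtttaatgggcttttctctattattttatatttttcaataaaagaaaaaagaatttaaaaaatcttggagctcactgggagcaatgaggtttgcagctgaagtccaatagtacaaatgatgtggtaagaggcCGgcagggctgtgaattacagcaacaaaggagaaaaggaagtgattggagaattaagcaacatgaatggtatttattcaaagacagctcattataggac
ADH4 gene record start: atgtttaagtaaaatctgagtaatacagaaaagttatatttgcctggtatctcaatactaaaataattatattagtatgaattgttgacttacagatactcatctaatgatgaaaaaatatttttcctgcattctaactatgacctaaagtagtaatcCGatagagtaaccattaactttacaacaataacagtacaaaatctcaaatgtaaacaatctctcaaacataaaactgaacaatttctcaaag
ADH6: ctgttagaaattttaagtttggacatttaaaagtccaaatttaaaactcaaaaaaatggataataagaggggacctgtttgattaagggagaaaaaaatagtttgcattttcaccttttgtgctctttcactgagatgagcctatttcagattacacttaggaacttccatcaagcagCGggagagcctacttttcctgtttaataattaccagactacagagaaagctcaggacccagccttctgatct
ADH1B: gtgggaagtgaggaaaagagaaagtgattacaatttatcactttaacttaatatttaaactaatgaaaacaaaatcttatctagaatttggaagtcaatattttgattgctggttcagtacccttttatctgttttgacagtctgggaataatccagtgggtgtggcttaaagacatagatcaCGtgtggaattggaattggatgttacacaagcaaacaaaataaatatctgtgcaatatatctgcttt
ADH5: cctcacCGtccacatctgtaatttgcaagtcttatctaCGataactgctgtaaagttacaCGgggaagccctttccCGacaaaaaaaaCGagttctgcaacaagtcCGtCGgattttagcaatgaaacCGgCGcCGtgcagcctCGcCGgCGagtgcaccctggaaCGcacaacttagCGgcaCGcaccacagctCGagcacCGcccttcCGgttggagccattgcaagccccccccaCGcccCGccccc

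All 7 members were found in the RefSeq promoter table. The promoters of ADH1A, ADH1B and ADH1C were 80.3% to 81.4% identical to each other over 3 pairwise alignments. The other 18 pairs of promoters reached 40.0% to 50.4%. Promoters of unrelated genes were not aligned, so no relatedness was read from this range. Low CpG ratios were found at covered and at peak-free starts alike. In the 1 kb around the TSS, the observed to expected CpG ratio was 0.14 at ADH4 and 0.11 at ADH6, against 0.18 at ADH1A, 0.20 at ADH1B, 0.32 at ADH1C and 0.16 at ADH7. Only ADH5 among the 7, with a ratio of 0.69 and 58.8% GC, was near the median of all protein-coding genes, which was 0.72 with 61.3% GC. The ratio of ADH6 was reached or undercut by 2.28% of genes and that of ADH4 by 4.68%. Over the whole cluster, sequence in peaks had 39.4% GC and 6.42 CpGs per kb, and sequence outside peaks 38.3% GC and 6.75 CpGs per kb.

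Short motifs were searched on both strands of the 250 bases before the canonical TSS of the 7 members. TATAAA was present at ADH4 and ADH7 and in 10.7% of 35116 RefSeq promoters. CCAAT was present at ADH4, ADH1A, ADH1B and ADH1C and in 32.0% of all promoters. CACGTG, the E-box palindrome, occurred at ADH1B and ADH1C and in 6.34% of promoters. GTTAAT, the core of HNF1 sites, occurred at ADH4 alone among the members and in 6.23% of promoters. TGTTTAC, a forkhead motif found in 2.98% of promoters, was in none of the 7 windows. Of these motifs, the second ADH4 sequence shown above, which lies before the outermost start and is not among the 7, holds GTTAAT and TGTTTAC, both on the opposite strand. These are matches of letters, and occupancy by a factor was not measured.

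Within the cluster, more of the TTD cover lay on the side of ADH4 and ADH6, which the choice of the members partly fixed. The 7 genes span 365 kb at chr4:99070978-99435510, in the order ADH5, ADH4, ADH6, ADH1A, ADH1B, ADH1C and ADH7 by rising coordinate. In this span, 14 peaks covered 64.9 kb or 17.8%, which was 8.33-fold the 2.14% of chromosome 4. Chromosome 4 as a whole held 7.25 peaks per Mb and the cluster 38.4, or 5.30-fold as many. Of 521 adjoining windows of this length on chromosome 4, 7 (1.34%) were covered as much, 197 held no peak, and the median cover was 0.521%. The members were chosen partly for the peaks at ADH4, which count in this cover, so its place among the windows is a description. The stretch from ADH5 through ADH6, 149 kb long, held 8 peaks and 29.3% cover, whereas the remaining 216 kb up to the TSS end of ADH7 held 6 peaks and 9.91% cover. From ADH4 through ADH6, 95.9 kb with 6 peaks, cover was 40.2%. The dividing points lie at the covered genes, so the contrast between these parts is a description too.

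**Figure D1:**
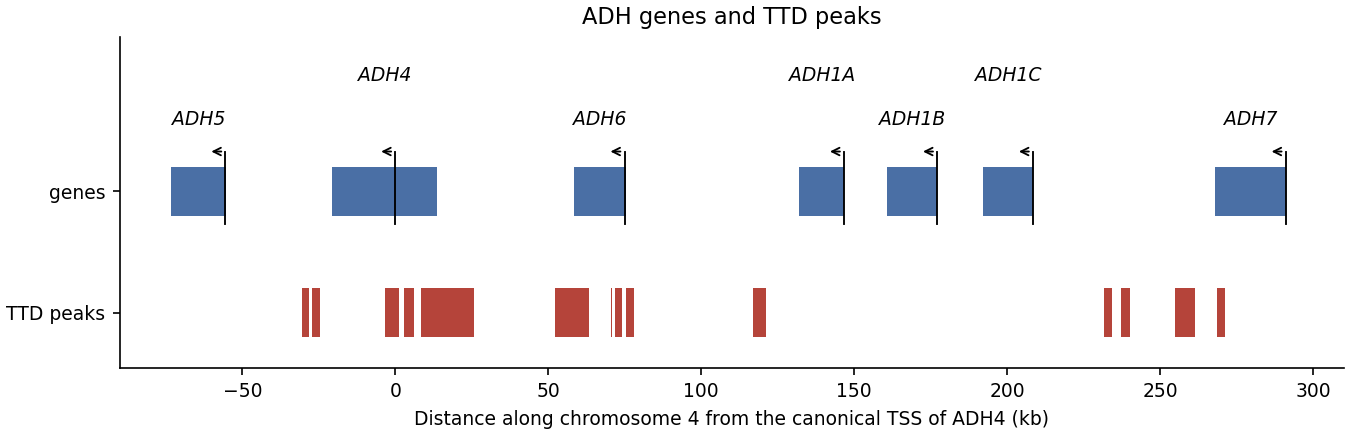
Map of the ADH cluster, with the gene records in blue, the canonical TSS of each gene as a black line with an arrow in the direction of transcription, and TTD peaks in red. The x axis is the distance along chromosome 4 from the ADH4 TSS in kb. Of the 14 peaks, 3 touch ADH4 and 3 touch ADH6, and a peak-free stretch of 110 kb holds ADH1A, ADH1B and ADH1C.

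The peaks of the cluster ranged from 420 to 17190 bp with a median of 2830 bp, and 12 of 14 were at or above the median width of the whole list, 2250 bp. The widest peak, chr4:99152821-99170010, ranked 131 by width in the list and 7 on chromosome 4, and 0.415% of the listed peaks were as wide. It lies at the upstream end of the ADH4 record, with 4972 bp inside the gene and 12218 bp beyond it, and takes in the processed pseudogene PCNAP1. The second widest, chr4:99196561-99207590 with 11030 bp, ranked 24 on chromosome 4 and lies over the 3′ end of ADH6. Together the 2 peaks held 43.5% of the covered bases of the cluster. A further 26.6 kb between them was without a peak. The narrowest peak, of 420 bp, lies within ADH6, and 98.7% of the listed peaks were as wide or wider.

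Peaks were found in genes as well as between them. Of the 14, 7 touched a member gene and 7 lay between genes, and cover was 16.5% over the 139 kb of gene bodies and 18.7% over the 225 kb between them. Only 4 peaks touched an exon of a canonical transcript. The interval between ADH4 and ADH6 was covered to 40.8%, wholly by the parts of the 2 wide peaks that extend beyond those genes. Cover was 14.3% between ADH5 and ADH4, 12.1% between ADH6 and ADH1A and 19.9% between ADH1C and ADH7. No peak was listed in the 14.0 kb between ADH1A and ADH1B or in the 15.1 kb between ADH1B and ADH1C. Neighbouring peaks were separated by a median of 7.18 kb, with the closest pair 860 bp apart.

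A peak within 2.5 kb of the TSS was listed for 2 of 7 members, ADH4 and ADH6. The corresponding share was 16.9% of all protein-coding genes and 15.2% of the 757 on chromosome 4. At least 50% of the 5 kb TSS window was covered for the same 2 members, compared with 2.32% of all genes. The TSS itself lay in a peak for 1 member, ADH4, and for 2.19% of all genes. A peak in the gene body was listed for 3 of 7 members, ADH4, ADH6 and ADH7, against 34.2% of all genes and 25.2% of the 4335 genes within the members' range of lengths. With 7 genes chosen for their peaks, nothing was read from the difference between these shares.

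**Figure D2:**
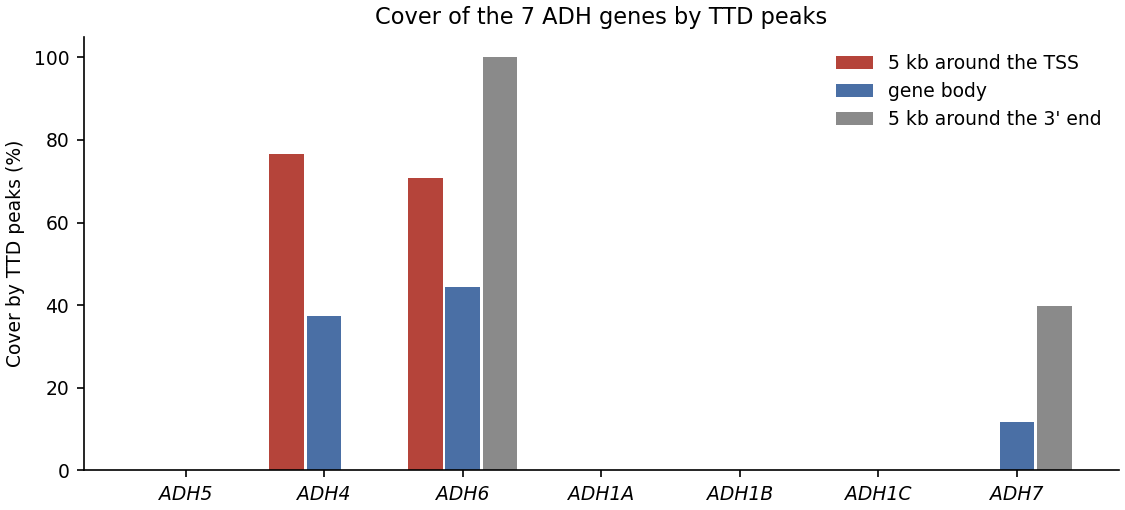
Cover of each ADH gene by TTD peaks, in percent of the 5 kb around the canonical TSS (red), of the gene body (blue) and of the 5 kb around the 3′ end (grey), with genes in order of coordinate and no error bars since the peaks were called on pooled replicates. ADH4 and ADH6 have covered TSS windows (76.7% and 70.8%), ADH6 and ADH7 have covered 3′ ends (100% and 39.8%), and ADH5, ADH1A, ADH1B and ADH1C have no bar.

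ADH4 (ENSG00000198099.10, chr4:99123657-99157792, 34.1 kb, 9 exons) carried TTD peaks over its start and in the upstream part of its gene record. Its TSS window was covered to 76.7% by 1 peak, chr4:99140951-99145630, which contains the canonical TSS at 99144297 and the whole of exons 1, 2 and 3. The 2.5 kb downstream of the TSS were covered to 100% and the 2.5 kb upstream to 53.3%. No peak lay in the 5 kb around the 3′ end. The gene record was covered to 37.3% by 3 peaks, with 12732 bp. The canonical transcript, which leaves out the 13.5 kb before its TSS, was covered to 16.2%, at similar levels in exons (16.8%) and introns (16.1%). The 3 peaks are separated by 1600 and 2510 bp, and the 29.1 kb from the first to the last of them was covered to 85.9%.

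ADH4 has 8 annotated transcript starts, and 7 of them lay in a peak. The exception, at 99136537, is the internal start of a transcript annotated for nonsense-mediated decay, 7760 bp downstream of the canonical one, and its 5 kb window had no cover. The outermost start, at 99157792, belongs to a transcript without a defined coding sequence. It lay in the widest peak and its window was covered to 100%. All other covered starts lay in the same peak as the canonical TSS, some of them internal starts of noncoding transcripts, so they are not separate covered promoters. In the list of TSS regions that the study used, ADH4 appears with 8 entries, which were covered to between 64.5% and 100% with a mean of 77.5%. The cover of ADH4 thus ranged from 0% to 100% with the start chosen. By cover of the canonical window, ADH4 ranked 11 among chromosome 4 genes, and 0.789% of all protein-coding genes were covered as much. For the gene body this share was 1.52%.

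ADH6 (ENSG00000172955.17, chr4:99202638-99219537, 16.9 kb, 9 exons) was covered on both sides of its start and over its 3′ end, but not at the start itself. In its TSS window, 2 peaks covered 70.8%, and the TSS at 99219246 lay in the 1460 bp gap between them, 455 bp from the upstream and 1006 bp from the downstream peak. The central 500 bp had no cover, compared with 100% at ADH4, while the upstream 2.5 kb were covered to 81.8% and the downstream 2.5 kb to 59.8%. None of the 7 annotated starts of ADH6 lay in a peak. The 5 kb around the 3′ end were covered to 100%, and exons 2, 7, 8 and 9 lay wholly in peaks. Exon cover was 70.7% and intron cover 40.0%, and the body as a whole was covered to 44.4% by 3 peaks. Exon 9, with 1605 bp the longest of these exons, contributed most of the exon cover. The value of the TSS window depended on the width considered: it was 27.2% within 1 kb on each side of the TSS, 50.1% within 5 kb and 25.1% within 10 kb. It was 40.9% when narrow peaks were left out.

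**Figure D3:**
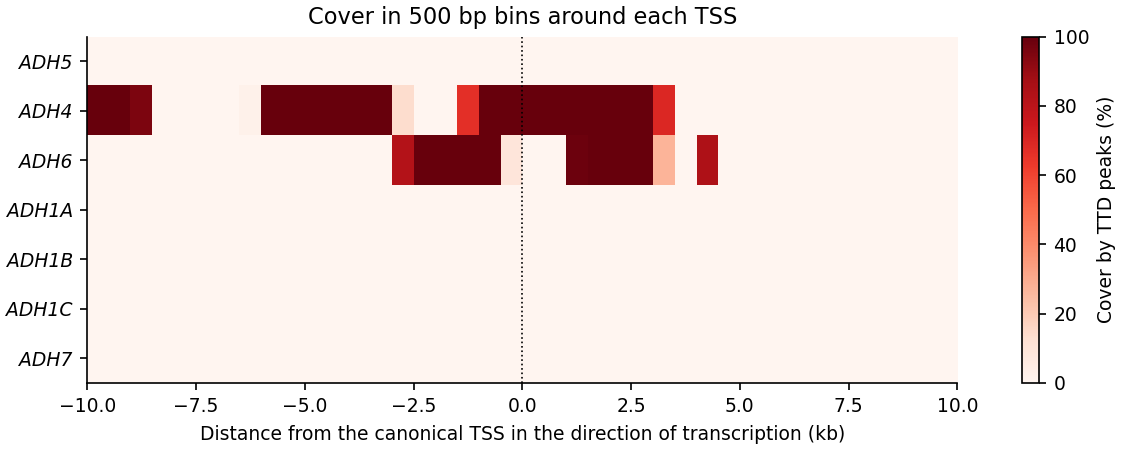
Cover by TTD peaks in 500 bp bins from 10 kb upstream to 10 kb downstream of each canonical TSS (x axis, kb, in the direction of transcription), with 1 line per ADH gene and the colour scale in percent. ADH4 is covered across the TSS, ADH6 on both sides of it with an uncovered centre, and the other 5 genes have no covered bin.

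ADH1A, ADH1B and ADH1C formed a continuous stretch without a TTD peak. ADH1A (ENSG00000187758.8, chr4:99276369-99291003), ADH1B (ENSG00000196616.15, chr4:99304971-99321401) and ADH1C (ENSG00000248144.6, chr4:99336497-99352746) are 14.6, 16.4 and 16.2 kb long, and none had a peak in its body, in its TSS window, in its 3′ window or at any of its 3, 5 and 3 annotated starts. The nearest peak to the TSS was 25505 bp away at ADH1A, 54420 bp at ADH1B and 23075 bp at ADH1C. Within 50 kb of the TSS, 1 peak was listed for ADH1A, 0 for ADH1B and 3 for ADH1C. In the TSS list of the study, ADH1A had 1 entry, ADH1B 6 and ADH1C 3, and none had a peak in its window.

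The stretch without a peak runs over chr4:99265481-99375820, or 110 kb, and is the widest gap between peaks in the cluster. Gaps of this size were common on chromosome 4. Of its 1378 gaps between peaks, 341 (24.7%) were as long, and they took up 82.7% of the chromosome. Of 1723 adjoining windows of the same length on chromosome 4, 1097 (63.7%) held no peak. A lack of peaks over such a length was thus more frequent on this chromosome than their presence.

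The class I genes are close paralogs, whose reads may fit several places. The share of 150-base sequences that occur elsewhere in the genome was therefore counted on both strands. It was 0 of 4851 in each of the 7 TSS windows, 644 of 110191 (0.584%) in the peak-free stretch and 0.788% in the whole cluster. In the gene bodies of ADH1A and ADH1B it was 0, in ADH1C 3.29% and in ADH7 4.20%. At 50 bases, the repeated share was 0.768% in the TSS window of ADH1A, 0 at ADH1B, 9.11% at ADH1C, 7.39% at ADH6 and 0 at ADH4. It was 6.99% in the peak-free stretch and 9.96% in the whole cluster. Over the gene bodies it was 4.39% in ADH1A, 5.45% in ADH1B, 10.3% in ADH1C and 17.5% in ADH7. Only exact copies in the reference were counted, and no reads or mapping qualities were examined. An effect of ambiguous mapping on the listed peaks was not tested.

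ADH5 (ENSG00000197894.12, chr4:99070978-99088801, 17.8 kb) had no peak in its body or TSS window, and none of its 11 annotated starts lay in a peak or had one in its window. The nearest peak was 25033 bp upstream of the TSS at 99088788, and the peak-free stretch around the gene was 84.8 kb long, a length that 29.5% of the gaps on chromosome 4 reached. Within 50 kb of its TSS, 2 peaks covered 5.00% of the sequence, against 29.9% around ADH4.

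ADH7 (ENSG00000196344.12, chr4:99412261-99435510, 23.2 kb) had a single peak, at the 3′ end, where ADH6 was covered too, and none at the TSS. This peak, chr4:99412771-99415480, started 508 bp from the 3′ end of the gene and covered 11.7% of the body and 39.8% of the 3′ window. It took in 44.2% of exon 9 and 2.16% of exon 8. The canonical TSS at 99435342 had no peak in its window and was 19862 bp from the nearest one. Of its 6 annotated starts, none lay in a peak, and the highest cover of a window was 42.1%, at the internal start at 99415874. Upstream of the peak, 158 kb of chromosome 4 held no peak, a length that 18.8% of the gaps on chromosome 4 reached.

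A long noncoding RNA gene (ENSG00000246090) runs along the cluster on the plus strand, opposite to the members. It starts 17 bp from the canonical TSS of ADH5, extends for 213 kb over ADH4, ADH6 and ADH1A and ends within the interval between ADH1A and ADH1B. It overlapped 10 of the 14 peaks and was covered to 23.7%, with 0% at its own TSS window. Peaks carry no strand, so those in ADH4 and ADH6 lie in both transcription units.

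Beyond the ADH genes, cover was lower on both sides. The 250 kb before ADH5 held 3 peaks with 4.14% cover, and the 250 kb after ADH7 held 2 peaks with 1.83% cover. Of the 6 protein-coding genes in this range, MTTP had a peak at its TSS, with 54.1% of the window covered and the TSS in a peak. It encodes the microsomal triglyceride transfer protein needed for lipoprotein assembly. In this window, 16.9% of all protein-coding genes and 15.2% of those on chromosome 4 had a peak. MTTP alone among 6 is thus near the background. METAP1, a methionine aminopeptidase, had 2 peaks in its body, covering 10.9%, and none at its TSS. EIF4E, the cap-binding translation factor, and C4orf17, TRMT10A and C4orf54 had no peak in body or TSS window. The nearest peak to the EIF4E TSS lay 5588 bp upstream.

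**Figure D4:**
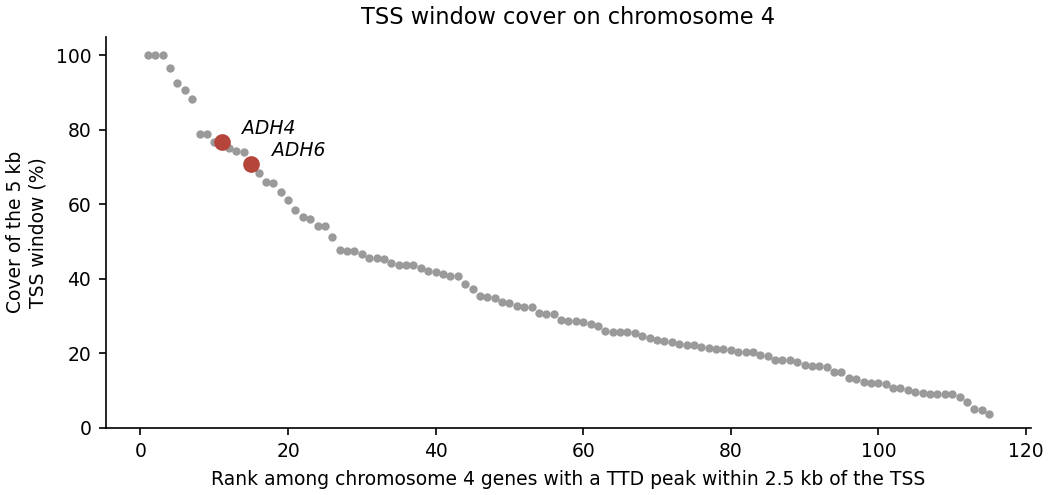
Cover of the 5 kb TSS window (y axis, percent) for the 115 protein-coding genes of chromosome 4 with a TTD peak within 2.5 kb of the TSS, ordered by cover (x axis, rank). ADH4 and ADH6, in red, take ranks 11 and 15, and the other 5 ADH genes have no peak in this window and are not drawn.

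The chromosome 4 genes most like ADH4 were sought by the distance between their covers of TSS window, gene body and 3′ window. The nearest was SULT1B1, a cytosolic sulfotransferase, at 4.82 percentage points, with 74.0%, 41.3% and 0% cover. It was followed by the UDP-glucuronosyltransferase gene UGT2A3 (66.0%, 46.7% and 0%), by AFP, which encodes the fetal plasma protein alpha-fetoprotein (75.0%, 22.3% and 0%), and by ALB, which encodes albumin (92.5%, 38.2% and 0%). UGT2B4, a glucuronosyltransferase of bile acids and steroids, came last of the 5 with 78.9%, 11.8% and 0%. In this order, the genes after SULT1B1 lay at 14.2, 15.1, 15.8 and 25.6 percentage points. For ADH4 the body was the gene record, covered to 37.3%, while its canonical transcript was covered to 16.2%, so the order rests on that choice. The uncovered 3′ windows are part of the measure that chose these genes. The order describes 1 pooled list and has no error.

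The ADH cluster was set beside 3 other gene clusters with a role in liver. At ALB, AFP and AFM, a 107 kb cluster of plasma protein genes, 4 peaks covered 25.6%, and the TSS lay in a peak for 3 of 3 genes. The 10 UGT2A and UGT2B genes spread over 1116 kb with 57 peaks and 25.0% cover, and 5 of them had a TSS in a peak. The glutathione transferase genes GSTA1 to GSTA5 on chromosome 6 spanned 245 kb with 14 peaks, the same number as the ADH cluster in a shorter span, and 35.6% cover, with a TSS in a peak for 2 genes. Chromosome 6 as a whole was covered to 5.33%, so the cover of this cluster was 6.68-fold that of its chromosome, below the 8.33-fold of the ADH cluster. This fold was 12.0 for ALB, AFP and AFM and 11.7 for the UGT2A and UGT2B genes. The ADH cluster had 17.8% cover with a TSS in a peak for 1 of 7 genes, a count that follows from the choice of the members, and 2.19% of all protein-coding genes had a TSS in a peak. Its peak density of 38.4 per Mb was close to the 37.4 per Mb at ALB, AFP and AFM, and the difference in cover between these clusters was not tested.

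Of 29 other genes of ethanol and retinol metabolism, 8 had a peak within 2.5 kb of the TSS, or 27.6% against the 16.9% of all genes. Within 1 kb, 3 of the 29 had a peak, near the 10.8% of all genes. None of the 29 had its TSS in a peak, which held for 2.19% of all genes. The largest cover was at ESD, which encodes S-formylglutathione hydrolase, the enzyme that acts after ADH5 in formaldehyde oxidation. There, 2 peaks covered 75.6% of the window, and the TSS lay between them, 740 bp from the upstream and 481 bp from the downstream peak, an arrangement like that of ADH6. At least 50% of the window was covered for 1 of the 29, ESD, and for 2.32% of all genes, so this count is near the background. It was followed by the retinol carrier RBP4 (43.8%) and by the retinol dehydrogenases and reductases DHRS4 (42.4%) and RDH16 (31.6%).

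Cover at the start varied among the genes that act on the products of ADH or beside it in ethanol oxidation. ALDH2, the mitochondrial enzyme that oxidises acetaldehyde, had no peak in its TSS window and 4.21% cover of its body. CYP2E1, the ethanol-inducible cytochrome P450, likewise had none at the TSS and 2.39% of its body. CAT, which encodes catalase, had 25.7% of the TSS window and 38.9% of its body covered. Named after their values were seen, 3 further genes had a peak at the start. Their TSS window was covered to 27.4% at ALDH1B1, another mitochondrial aldehyde dehydrogenase, to 24.9% at ALDH1L1, a folate enzyme of this family, and to 19.2% at ACSS1, which activates acetate. Over all 29 genes, 21 of which had no peak at the TSS, the median cover was 0% and the mean 10.0%, against 0% and 5.19% over all protein-coding genes. Of the 29 genes, 18 had a peak in the body, or 62.1% against 34.2% of all protein-coding genes, and the median body cover was 5.18% against 0%. The lengths of these genes were not taken into account. The count of 8 depended on the window: it was 3 within 1 kb of the TSS, where 10.8% of all genes had a peak, 16 within 10 kb, where 29.9% had one, and 1 when at least 50% of the window had to be covered.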

How the data were processed

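Chromatin binding of the UHRF1 TTD was measured by CIDOP in HepG2 cells. Per the methods and processing notes of the submitters, reads were trimmed with Trimmomatic 0.38, checked with FastQC 0.72 and mapped to hg38 with HISAT2 2.2.1. Coverage was computed with deepTools 3.3.2 as RPKM in bins of 10 bp, omitting the blacklist, and the mean of 2 TTD libraries was taken. Broad peaks were called with MACS2 2.1.1 at fixed cutoffs, and the authors curated them by hand. The authors deposited 1 pooled list of 31569 peaks, whose values are peak positions and widths in bp, with no counts or scores. The H3K9me2 ChIP, the input and the single TTD libraries were not analysed here, nor were the expression ratios. The depth behind a peak is unknown.

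Peaks were intersected with GENCODE release 44 genes on hg38. Cover is the percent of a window in TTD peaks. The TSS was the 5′ end of the Ensembl canonical transcript, 1 per gene, with 2.5 kb on each side. The positions of the TSS regions in the study's list of genes that differ between HepG2 and liver served as an alternative. Promoters came from RefSeq (GRCh38.p14) or from the hg38 sequence, and 150-base and 50-base sequences were searched on chromosomes 1 to 22, X and Y. The members and lists were chosen with earlier results of these data known. The named genes were all members, the protein-coding genes within 250 kb, the 29 pathway genes (ALDH2, CYP2E1, CAT and the 4 with the largest TSS cover by name, and 3 more named after their values were seen), the 5 genes nearest to ADH4 in cover, and 3 other clusters. No test was run, since the list has no replicates. The interval arithmetic was tested on simulated data. Python 3.11.15, numpy 2.4.6, scipy 1.17.1, Biopython 1.88 and matplotlib 3.10.9 were used.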

Additional observations from a re-analysis of the deposited data

How the results depend on the processing

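No paired analysis was possible because both TTD libraries were pooled before the peaks were called and the list carries no replicate number. For the same reason no replicate could be left out. Counts were taken as moved beyond 1.5-fold, and covers beyond a 95% Wilson interval over 10 bp bins. Neighbouring bins are not independent, so this limit is a convention and no error. By it, 7 of 29 alternatives for counts and covers moved the value, with the count in the study's TSS list set against the same 4 genes (1 of 4 in both). The number of members with a peak in the gene body fell from 3 to 0 when at least 50% of the body had to be covered. The cover of the cluster, 17.8%, was 17.1% with peaks at or above the median width, 18.3% with peaks less than 1 kb apart joined and 15.2% with 50 kb added on each side. The number of pathway genes with a peak at the TSS, 8, was 3 within 1 kb (10.8% of all genes), 16 within 10 kb (29.9% of all genes) and 1 with at least 50% of the window covered. The number of members with a peak at the TSS, 2, was 3 over all annotated starts, and 1 in the study's TSS list, which holds 4 of the members, ADH6 not among them. It was 2 under the other alternatives run, and the TSS lay in a peak for 1 member under each of its alternatives. For the windows of single members, 10 of 53 alternatives moved the value, all at ADH4, ADH6 or ADH7, and the ADH5, ADH1A, ADH1B and ADH1C windows held no peak in any of them. At ADH4 the cover was 46.2% within 10 kb on each side and 100% within 1 kb. At ADH7 it was 7.02% as the mean over all annotated starts. Without depth, score or replicates, a peak just over the cutoff of the authors cannot be told from a strong one.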
